A study of Homo sapiens with 4 samples.

Results

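The proteasome genes measured here are the 48 genes whose symbols begin with PSM, followed by a letter from A to G and a number, out of 60617 genes listed in each library. Their messenger RNA was counted in U87MG, an established human glioblastoma cell line, grown as spheres in DMEM/F12 medium with the supplements N2 and B27 (2%) and with 20 ng/ml each of the growth factors EGF and bFGF. One group of 2 poly-A libraries came from untreated spheres and the other group of 2 from spheres given abemaciclib, a small-molecule inhibitor of the cell cycle kinases CDK4 and CDK6, both collected at day 14. The dose and what the untreated spheres received in place of the drug are not given in the sources used here. Nothing in the labels says that the libraries of a group came from separate cultures, so the p-values rest on the spread between libraries alone, and that spread may be technical.

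The proteasome is the barrel-shaped protease that degrades proteins tagged with ubiquitin. Its core particle stacks rings of alpha subunits (PSMA), which form the gate, on rings of beta subunits (PSMB), some of which carry the cutting sites. A regulatory particle caps the core: its base holds a ring of ATPases (PSMC) that unfold the substrate, and its base and lid hold further subunits (PSMD) that bind and remove ubiquitin. Dedicated chaperones (PSMG and several PSMD proteins) help to assemble the rings and leave the finished particle. Other caps (PSME) and an inhibitor (PSMF1) bind the ends of the core, and interferon exchanges the cutting beta subunits for those of the immunoproteasome (PSMB8, PSMB9, PSMB10). Because a complex needs its subunits together, the transcripts of the core and cap are known to rise jointly when proteasome activity is blocked, through the transcription factor NFE2L1.

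Library totals ran from 23684260 to 33418075 expected counts. Mitochondrially encoded genes held 4.27% to 4.66% of counts without the drug and 11.7% to 11.8% with it. With those genes left out, the counts of proteasome genes called were the same (29 higher and 11 lower). Of 7 glial and glioma markers, VIM, NES, CD44 and SLC1A3 were expressed and GFAP, S100B and AQP4 stayed under 1 CPM in all 4 libraries (TMM-scaled CPM, the usual depth-normalised count). Of 6 microglia and macrophage markers, 5 stayed under 1 CPM, AIF1 at 0, as did all 3 T cell markers. The summed level of the microglia and macrophage markers, carried by CSF1R, was 11.3 to 11.9 CPM untreated and 5.87 to 6.73 CPM after the drug. The 3 endothelial markers summed to at least 13.8 CPM in each untreated library and at most 7.52 CPM in each treated one, and the 3 neuron markers to 46.8 to 48.5 and 59.3 to 63.6 CPM. Neither set moved as one: PECAM1 fell (-3.14 ± 0.18) while VWF rose (0.40 ± 0.15), and SYT1 fell (-0.75 ± 0.11) while SNAP25 rose (0.60 ± 0.05). The glial and glioma sum was 7172 to 7758 CPM untreated and 4925 to 4982 CPM treated, and the part of these shifts in the results was not tested.

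Most proteasome transcripts were modestly higher after abemaciclib. Of the 48 genes, 46 had enough counts to be tested, 29 of them rose, 11 fell and 6 did not pass the threshold (adjusted p under 0.05 in edgeR's quasi-likelihood F test, with Benjamini-Hochberg adjustment over all 17207 genes tested). Over all genes tested, 38.0% were called higher and 39.3% lower, 77.3% in all, against 63.0% and 23.9% of the 46 proteasome genes. The median log2 fold change of the 46 was 0.18, with quartiles of 0.01 and 0.49, beside a median of -0.01 and quartiles of -0.69 and 0.58 over all genes tested. Changes of at least 1.5-fold were seen in 11 proteasome genes, all higher (23.9%, beside 23.3% of all genes that rose this far), and in 0 lower (26.5% of all genes fell this far, so that 49.8% moved this far either way). Past 2-fold there were 4 higher and 0 lower, beside 13.8% and 17.4% of all genes. The lowest value was that of PSMG3, 1.46-fold lower, so the count of 0 is set by the fold and not by the p threshold (0 also at an unadjusted p under 0.05 and by DESeq2). In 43 of the 46 genes every library of one group lay above both of the other group (93.5%, beside 87.9% of all genes tested).

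**Figure D1:**
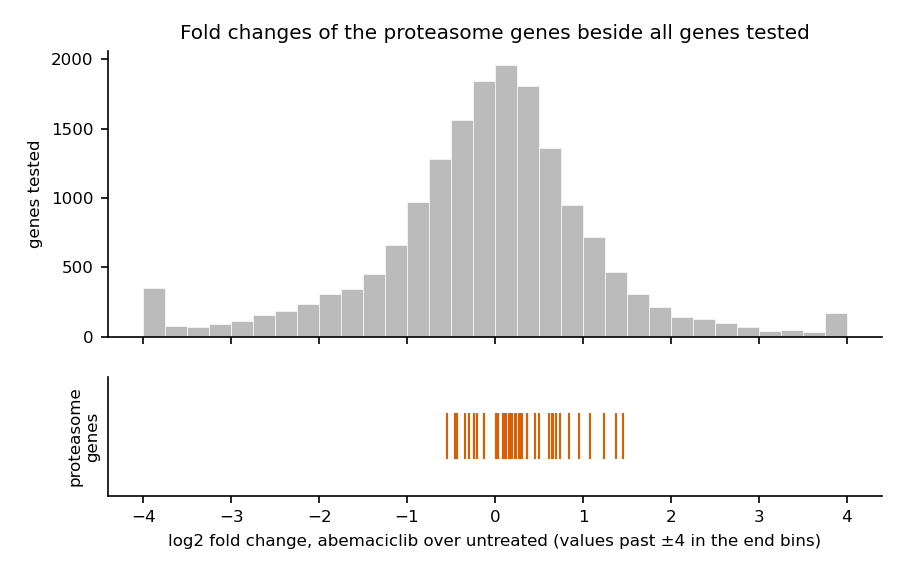
The upper panel plots the number of genes tested (vertical axis) in each interval of log2 fold change, abemaciclib over untreated (horizontal axis), and the ticks in the lower panel mark the 46 proteasome genes tested. The ticks lie between -0.55 and 1.45, inside the range of all genes and more often above 0 than below it.

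Summed over the 48 genes, proteasome transcripts took 3523 and 3572 CPM without the drug and 4372 and 4341 CPM with it. The treated sums were the higher ones in both replicates, a ratio of the group means of 1.23 (exact two-sided permutation p = 0.333, the smallest that 2 against 2 libraries can give). A sum of TMM-scaled CPM is a relative level. As a share of the library total the ratio was 1.27. In these bulk libraries a change in the cells present cannot be told apart from a change in RNA per cell. The role groups contributed unequally. The treated sums were 1.70-fold the untreated ones for the base subunits without ATPase activity and 1.67-fold for the activators and inhibitor, and 1.07-fold for the lid, 1.07-fold for the constitutive catalytic subunits and 1.18-fold for the alpha subunits.

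**Figure D2:**
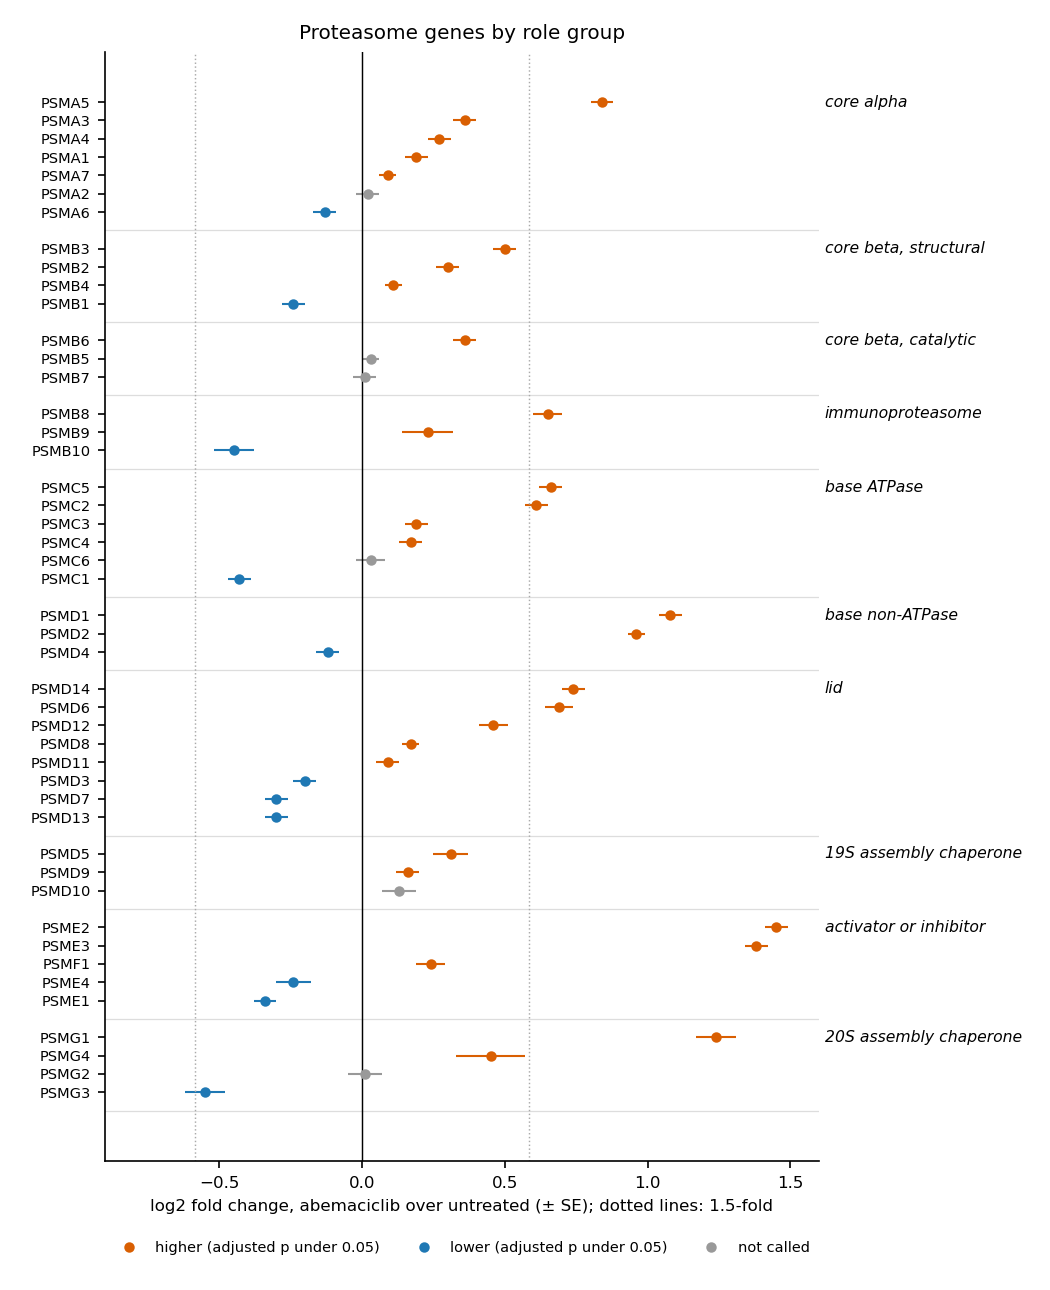
The horizontal axis shows the log2 fold change (abemaciclib over untreated, with its standard error) of each of the 46 proteasome genes tested, arranged by role on the vertical axis and coloured by the edgeR call, with dotted lines at 1.5-fold. Every role group except the constitutive catalytic subunits and the chaperones of the cap holds at least 1 gene called lower, and PSME2, PSME3, PSMG1 and PSMD1 lie farthest to the right, past 2-fold.

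Of the 7 alpha subunits of the gate ring 6 changed, 5 of them upward (77.3% of all genes tested were called, 38.0% higher). PSMA5 (ENSG00000143106, GRCh38 chromosome 1, 109399031 to 109426427) moved furthest in this ring. Its level was 99.4 and 106 CPM untreated and 186 and 181 CPM treated, so the groups were far apart, and its log2 fold change was 0.84 ± 0.04 (SE, adjusted p = 1.18e-19). PSMA3 (0.36 ± 0.04), PSMA4 (0.27 ± 0.04), PSMA1 (0.19 ± 0.04) and PSMA7 (0.09 ± 0.03) rose by less. PSMA6 was the alpha subunit that fell, from 141 and 152 to 134 and 133 CPM (-0.13 ± 0.04, adjusted p = 0.00160). Its call was lost without untreated replicate 2 (-0.08, adjusted p = 0.0694) and with DESeq2 (-0.12, adjusted p = 0.0774), and that of PSMA7 without abemaciclib replicate 1 (adjusted p = 0.0979) and with DESeq2 (0.0732). PSMA2 was level at 60.6 and 61.0 CPM untreated and 60.5 and 62.5 CPM treated, overlapping between the groups. The testis alpha subunit PSMA8 had 0 counts in every library.

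In the beta ring no constitutive subunit moved by 1.5-fold. Among the 4 structural subunits PSMB3 rose most, from 64.2 and 64.1 CPM to 93.0 and 88.7 CPM (0.50 ± 0.04, adjusted p = 1.59e-12), and PSMB2 (0.30 ± 0.04) and PSMB4 (0.11 ± 0.03) rose by less. PSMB1 fell, from 114 and 110.4 CPM to 93.6 and 96.1 CPM (-0.24 ± 0.04, adjusted p = 7.73e-07). Of the 3 constitutive catalytic subunits, PSMB6, the caspase-like site, rose from 73.7 and 76.1 to 97.9 and 94.9 CPM (0.36 ± 0.04, adjusted p = 8.98e-10). PSMB5, the chymotrypsin-like site and the target of proteasome inhibitor drugs, was at 159.5 and 156 CPM untreated and 161 and 162 CPM treated (0.03 ± 0.03, adjusted p = 0.396), and was called higher with scaling by library total alone (0.08, adjusted p = 0.0216). PSMB7, the trypsin-like site, was at 115 and 118 CPM untreated and 116 and 118 CPM treated (0.01 ± 0.04, adjusted p = 0.875). The libraries of the groups overlapped for PSMB7 and were separated by a narrow gap for PSMB5. PSMB11, the thymus catalytic subunit, had 1 count in 1 treated library and 0 in the other 3.

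The 3 immunoproteasome subunits did not move together. PSMB8, which replaces PSMB5, rose from 29.7 and 31.3 CPM to 48.4 and 47.6 CPM, a log2 fold change of 0.65 ± 0.05 (adjusted p = 3.25e-12). PSMB9, which replaces PSMB6, was at 12.6 and 14.3 CPM untreated and 15.6 and 16.0 CPM treated (0.23 ± 0.09, adjusted p = 0.0209). That call was lost without untreated replicate 1 (0.15, adjusted p = 0.219), without abemaciclib replicate 2 (0.22, adjusted p = 0.0871) and with DESeq2 (0.25, adjusted p = 0.192). PSMB10, which replaces PSMB7, fell from 28.9 and 32.1 CPM to 21.2 and 23.2 CPM (-0.45 ± 0.07, adjusted p = 9.62e-07). PSMB8 and PSMB10 each separated the groups by more than the gap between replicates, in opposite directions.

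Scaled by the length of each gene's principal transcript, every immunoproteasome subunit was below its constitutive counterpart in all 4 libraries. The log2 ratio of PSMB8 to PSMB5 was -2.22 and -2.12 untreated and -1.53 and -1.56 treated, so PSMB5 exceeded PSMB8 4.49-fold before and 2.92-fold after the drug. The log2 ratio of PSMB10 to PSMB7 moved the other way, from -2.31 and -2.19 to -2.77 and -2.66. For PSMB9 to PSMB6 it was -2.43 and -2.29 untreated and -2.52 and -2.44 treated. The treated and untreated libraries were separated by less for this last pair than for the other two. Each of these 3 ratios had an exact two-sided permutation p of 0.333, the smallest this design allows. With the union of all annotated exons as the length, an alternative added after seeing the data, the untreated log2 ratios were -3.14 (PSMB8 to PSMB5), -3.57 (PSMB9 to PSMB6) and -1.99 (PSMB10 to PSMB7), and the constitutive subunit was still the higher one.

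PSMB8 (chromosome 6, 32840717 to 32844703, minus strand) overlaps PSMB9 (32844136 to 32859585, plus strand) and the antisense gene PSMB8-AS1, and PSMB9 also overlaps the peptide transporter gene TAP1. Whether counting used strand is not given in the sources used here, and reads of these neighbours may be shared. PSMB8-AS1 itself fell, from 5.97 ± 0.194 to 2.72 ± 0.204 CPM (SD, n = 2; log2 fold change -1.12 ± 0.16), and TAP1 rose slightly (0.17 ± 0.05). PSMB10 overlaps AC040162.1 on its own strand.

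Among the proteasome genes tested, PSME2 and PSME3, which encode caps of the core, had the highest log2 fold changes. PSME2, the beta subunit of the PA28 activator (ENSG00000100911, chromosome 14, 24143362 to 24147570, minus strand), rose from 70.1 and 74.4 CPM to 198 and 197 CPM. Its log2 fold change was 1.45 ± 0.04 (2.73-fold, adjusted p = 1.11e-25). PSME1, the alpha subunit with which PSME2 forms a ring, lies on the same chromosome (24136158 to 24138967, plus strand). It fell from 96.0 and 105 CPM to 79.5 and 80.1 CPM (-0.34 ± 0.04, adjusted p = 2.12e-08). The log2 ratio of PSME2 to PSME1 per kilobase went from -0.94 and -0.98 to 0.83 and 0.81, a difference of 1.78 (exact permutation p = 0.333). PSME1 was thus the more abundant transcript in both untreated libraries and PSME2 in both treated ones, which also held with the union of exons as the length (-1.48 untreated, 0.30 treated). The ratio was chosen after its values were seen.

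PSME3, which forms the nuclear activator PA28-gamma by itself (ENSG00000131467, chromosome 17, 42824385 to 42843758), rose from 66.9 and 67.1 CPM to 177 and 172 CPM (1.38 ± 0.04, 2.60-fold, adjusted p = 3.32e-25). PSME4, the large single-chain activator PA200, was lower at 37.0 and 33.7 CPM against 41.9 and 41.2 CPM untreated (-0.24 ± 0.06, adjusted p = 3.68e-04). PSMF1, which encodes the inhibitor PI31, rose from 39.0 and 38.1 CPM to 45.7 and 45.6 CPM (0.24 ± 0.05, adjusted p = 1.04e-04). The groups did not overlap for any of these 5 genes. Opposite-strand neighbours that overlap the leading ones also rose, though by less: RNF31, which overlaps PSME2, had a log2 fold change of 0.78 ± 0.05, and BECN1, which overlaps PSME3, one of 0.70 ± 0.05. Whether reads were shared between them was not tested.

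**Figure D3:**
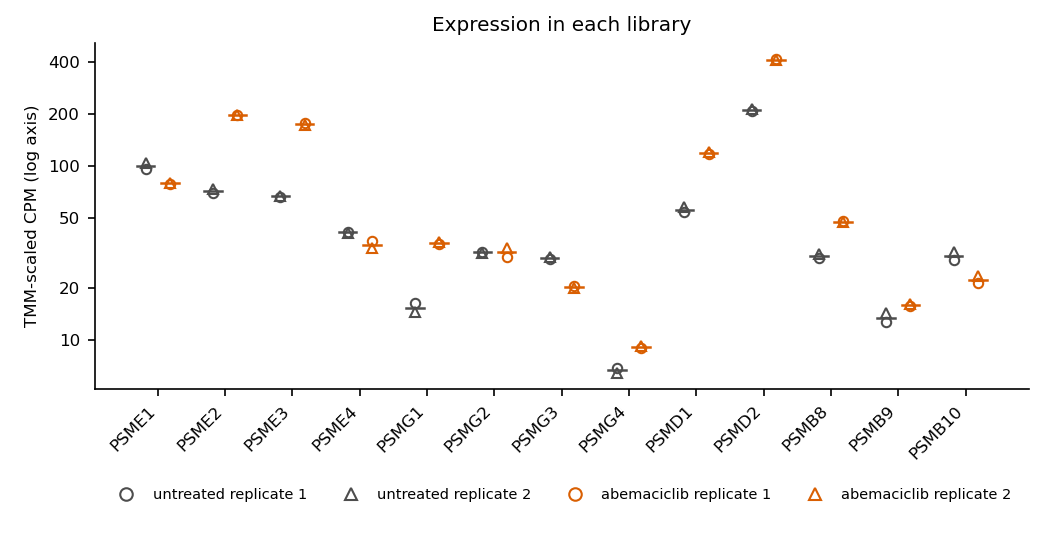
The vertical log axis gives the TMM-scaled CPM of 13 proteasome genes (horizontal axis) in each library, with circles for replicate 1, triangles for replicate 2 and bars for group means. PSME2 and PSME3 lie between 172 and 198 CPM in the treated libraries while PSME1 and PSME4 are lower there than untreated, and PSMG2 is the gene whose groups overlap.

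To show what the oppositely moving interferon-responsive members share near their starts, the RefSeq promoter windows of PSME1, PSME2, PSMB8 and PSMB10 are printed. The window of PSMB9, an immunoproteasome subunit that interferon also brings in, is printed after them. Each window (GRCh38.p14) runs from 250 bases before to 50 bases after an annotated start, 5′ to 3′ on the gene's strand. Capitals mark a match on either strand to GAAA, any 2 bases and GAAA again, the core of the interferon-stimulated response element. The windows lie at chr14:24135944-24136243 (PSME1, plus strand), chr14:24146561-24146860 (PSME2, minus), chr6:32843998-32844297 (PSMB8, minus, the one of its 2 windows with a match), chr16:67936801-67937100 (PSMB10, minus) and chr6:32853942-32854241 (PSMB9, plus).
PSME1: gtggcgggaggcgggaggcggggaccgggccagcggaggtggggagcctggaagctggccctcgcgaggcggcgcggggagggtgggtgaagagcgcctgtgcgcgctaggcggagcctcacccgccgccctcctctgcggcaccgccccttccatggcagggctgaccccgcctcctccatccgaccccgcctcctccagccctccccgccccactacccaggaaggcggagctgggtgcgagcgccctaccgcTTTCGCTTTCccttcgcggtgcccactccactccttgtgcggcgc
PSME2: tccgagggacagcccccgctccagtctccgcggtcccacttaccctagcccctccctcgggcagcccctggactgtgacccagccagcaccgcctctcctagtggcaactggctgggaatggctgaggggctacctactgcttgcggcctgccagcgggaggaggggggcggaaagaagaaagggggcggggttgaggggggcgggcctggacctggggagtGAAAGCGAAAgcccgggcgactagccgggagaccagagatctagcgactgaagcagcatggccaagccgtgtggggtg
PSMB8: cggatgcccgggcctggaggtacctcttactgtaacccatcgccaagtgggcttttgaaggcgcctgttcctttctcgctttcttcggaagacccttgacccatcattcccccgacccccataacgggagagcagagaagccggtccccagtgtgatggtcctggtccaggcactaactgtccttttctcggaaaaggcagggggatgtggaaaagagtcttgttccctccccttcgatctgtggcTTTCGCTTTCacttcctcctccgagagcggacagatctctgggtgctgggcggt
PSMB10: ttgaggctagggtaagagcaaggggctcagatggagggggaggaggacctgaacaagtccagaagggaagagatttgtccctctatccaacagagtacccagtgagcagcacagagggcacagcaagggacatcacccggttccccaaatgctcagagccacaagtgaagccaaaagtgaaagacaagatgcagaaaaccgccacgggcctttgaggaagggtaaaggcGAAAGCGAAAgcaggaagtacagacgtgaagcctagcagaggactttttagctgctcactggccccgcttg
PSMB9: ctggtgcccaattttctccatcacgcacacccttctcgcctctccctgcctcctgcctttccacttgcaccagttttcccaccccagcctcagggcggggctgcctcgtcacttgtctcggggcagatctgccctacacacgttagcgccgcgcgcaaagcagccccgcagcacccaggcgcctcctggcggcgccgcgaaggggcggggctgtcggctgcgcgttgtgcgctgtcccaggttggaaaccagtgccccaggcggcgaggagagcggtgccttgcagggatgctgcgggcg

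The match lies at bases 256 to 265 of the PSME1 window, 223 to 232 for PSME2, 247 to 256 for PSMB8 and 230 to 239 for PSMB10. The PSMB9 window holds 0 matches, which does not show that PSMB9 lacks interferon control. Of these 4 matched genes PSME2 and PSMB8 rose and PSME1 and PSMB10 fell. RefSeq windows were found for 42 of the 48 genes by symbol (PSMA7, PSMB1, PSMB6, PSMB7, PSMD4 and PSMG3 had none). Among the 42, 7 held this match (16.7%), beside 4.38% of the 27305 genes with a window. The other 3 were PSMA4, PSMB4 and PSMG4, all called higher. TGACNNNGC, the core of the antioxidant response element that NFE2L1 also binds, was found on either strand in 15 of the 42 (35.7%, beside 16.1% of all genes). Of those 15, 11 were called higher, 3 lower and 1 neither. Of all 46 proteasome genes tested, 63.0% were called higher and 23.9% lower. A link between any match and the direction of change was not tested. CCAAT, the box bound by NF-Y, was found in 20 of the 42 (47.6%, beside 39.7%). Matches of different motifs overlapped in 0 of the 51 windows of these genes. A match is a run of letters, and no binding was measured.

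In the regulatory particle, the ATPase ring changed unevenly. PSMC5 (0.66 ± 0.04) and PSMC2 (0.61 ± 0.04) rose by over 1.5-fold, PSMC3 (0.19 ± 0.04) and PSMC4 (0.17 ± 0.04) by less, and PSMC6 did not pass (0.03 ± 0.05, adjusted p = 0.619). PSMC5 was at 69.2 and 73.3 CPM untreated and 112 and 114 CPM treated. PSMC1 went the other way, from 111 and 119.8 CPM to 87.1 and 84.3 CPM (-0.43 ± 0.04, adjusted p = 2.65e-11). The groups did not overlap for either gene. PSMC1 has 13 annotated pseudogenes, whose counts came to 8.96% to 11.0% of its own in a library, and with these added its log2 fold change was -0.44.

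The scaffold subunits of the base rose most in this particle. PSMD2, which carries a docking site for the ubiquitin-like domains of shuttle proteins (ENSG00000175166, chromosome 3, 184298709 to 184309054), went from 209.6 and 213 CPM to 416 and 408 CPM (0.96 ± 0.03, adjusted p = 6.76e-23). PSMD1, the other large scaffold (ENSG00000173692, chromosome 2, 231056864 to 231172827), went from 54.4 and 57.9 CPM to 117 and 121 CPM (1.08 ± 0.04, 2.11-fold, adjusted p = 4.12e-21). Both scaffolds were far above their untreated levels in each treated library. PSMD2 overlaps no annotated gene, and HTR2B, which overlaps PSMD1 on the opposite strand, had 0 counts in every library. PSMD4, the ubiquitin receptor of the base, was at 98.0 and 100.4 CPM untreated and 90.3 and 91.8 CPM treated (-0.12 ± 0.04, adjusted p = 0.00370). Its call was lost with scaling by library total (-0.07, adjusted p = 0.0883), with DESeq2 (-0.11, adjusted p = 0.146) and without abemaciclib replicate 1 (-0.10, adjusted p = 0.0666).

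All 8 lid subunits were called, 5 higher and 3 lower (77.3% of all genes tested were called, 38.0% higher and 39.3% lower). PSMD14, the deubiquitinase that removes the ubiquitin chain, rose from 49.0 CPM in both untreated libraries to 81.5 and 82.3 CPM (0.74 ± 0.04, adjusted p = 2.63e-16). PSMD7, its catalytically inactive partner in the lid, fell from 68.5 and 69.6 CPM to 56.6 and 55.9 CPM (-0.30 ± 0.04, adjusted p = 2.88e-07). PSMD6 (0.69 ± 0.05), PSMD12 (0.46 ± 0.05) and PSMD8 (0.17 ± 0.03) also rose. PSMD13 had the lowest fold change of the lid, from 98.1 and 92.8 CPM to 77.5 CPM in both treated libraries (-0.30 ± 0.04, adjusted p = 5.44e-08), and PSMD3 fell too (-0.20 ± 0.04). PSMD11 was called higher at 0.09 ± 0.04 (adjusted p = 0.0353). It was not called without untreated replicate 1 (adjusted p = 0.0665), untreated replicate 2 (0.0848) or abemaciclib replicate 1 (0.208), or with DESeq2 (0.191).

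Among the assembly chaperones the paired PSMG proteins split. PSMG1, which joins PSMG2 in a dimer on which the alpha ring is built (ENSG00000183527, chromosome 21, 39174769 to 39183851, overlapping no annotated gene), rose from 16.3 and 14.4 CPM to 35.4 and 36.5 CPM. Its log2 fold change was 1.24 ± 0.07 (2.36-fold, adjusted p = 3.15e-16). PSMG2 was at 32.2 and 31.6 CPM untreated and 30.0 and 33.8 CPM treated, with overlapping groups (0.01 ± 0.06, adjusted p = 0.914). In the second dimer, PSMG3 fell from 29.1 and 29.8 CPM to 20.4 and 19.9 CPM (-0.55 ± 0.07, adjusted p = 1.38e-08), the lowest fold change of the 46 genes. PSMG4 rose from 6.89 and 6.42 CPM to 8.93 and 9.24 CPM (0.45 ± 0.12, adjusted p = 8.74e-04), and with DESeq2 it just missed the threshold (0.46, adjusted p = 0.0532). The log2 ratio of PSMG1 to PSMG2 was 1.24 higher and that of PSMG4 to PSMG3 1.00 higher after the drug, without overlap of the libraries. Each had an exact permutation p of 0.333, and both ratios were chosen after their values were seen. PSMG2 overlaps CEP76, SPIRE1 and AP005482.3 on the opposite strand, PSMG3 overlaps PSMG3-AS1, and PSMG4 overlaps SLC22A23 and TUBB2B. Whether reads were shared with these neighbours was not tested.

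The 3 chaperones of the cap moved little. PSMD5 rose from 30.3 and 30.7 CPM to 38.4 and 37.3 CPM (0.31 ± 0.06, adjusted p = 1.74e-05) and PSMD9 from 68.8 and 67.4 CPM to 75.3 and 76.5 CPM (0.16 ± 0.04, adjusted p = 9.08e-04). PSMD10 encodes gankyrin, which also binds CDK4 and RB1. It was at 29.6 and 31.1 CPM untreated and 34.4 and 32.1 CPM treated (0.13 ± 0.06, adjusted p = 0.0662), with a narrow gap between the groups. It was called higher with scaling by library total (0.18, adjusted p = 0.00992) and without abemaciclib replicate 2 (0.19, adjusted p = 0.0278).

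**Figure D4:**
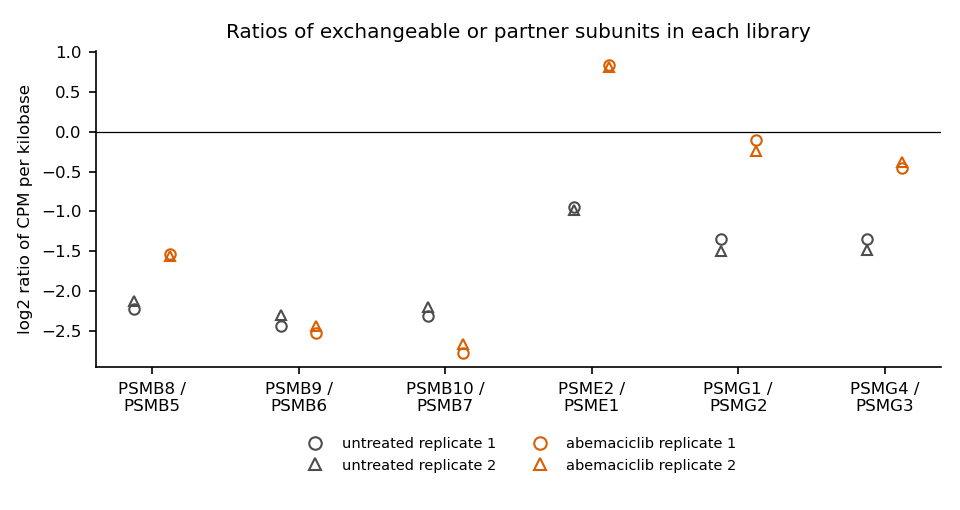
The vertical axis gives the log2 ratio of CPM per kilobase of principal transcript for 6 pairs of exchangeable or partner subunits (horizontal axis) in each library. The ratios of PSME2 to PSME1, PSMG1 to PSMG2 and PSMG4 to PSMG3 lie 1.00 to 1.78 higher in the treated libraries, while PSMB10 to PSMB7 lies 0.46 lower. The height of a pair depends on the lengths used, and its shift between groups does not.

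Proteins that work with the proteasome but carry other symbols were read from lists chosen with earlier results known. Over all genes tested, 38.0% were called higher and 39.3% lower, with a median log2 fold change of -0.01. Of 10 other proteasome proteins, 8 were called higher and 2 lower, with a median log2 fold change of 0.26. The deubiquitinase USP14 (0.72 ± 0.05), the ligase UBE3C (0.58 ± 0.03), the core maturation factor POMP (0.53 ± 0.06) and the ubiquitin receptor ADRM1 (0.27 ± 0.04) rose, while the nuclear import factor AKIRIN2 (-0.28 ± 0.05) and the scaffold ECPAS (-0.19 ± 0.04) fell. Of 11 genes listed under control of proteasome transcription, 2 were called higher and 7 lower and the other 2 were not called. Their median log2 fold change was -0.22. The list includes genes that act on the NFE2L1 protein, such as NGLY1, and an effect of the listed genes on proteasome transcription was not tested. NFE2L1, at 826 ± 14.1 CPM untreated and 931 ± 5.85 CPM treated (SD, n = 2), rose by a log2 fold change of 0.17 ± 0.03. Its small MAF partners fell, MAFK by 7.83-fold (-2.97 ± 0.06), MAFF by 2.91-fold (-1.54 ± 0.04) and MAFG by 1.10-fold (-0.14 ± 0.03), as did the competing repressor BACH1 (-1.35 ± 0.10) and NGLY1 (-0.46 ± 0.07), the enzyme that removes sugars from NFE2L1.

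The ubiquitin genes moved both ways, with 4 of 6 higher and 2 lower (beside 38.0% and 39.3% of all genes tested). UBB rose (0.52 ± 0.03) and RPS27A, which encodes ubiquitin fused to a ribosomal protein, fell (-0.35 ± 0.03). Of 7 shuttle receptors and unfoldase cofactors 3 rose, 2 fell and 2 were not called. NPLOC4, a cofactor of the unfoldase VCP, rose (0.31 ± 0.03) and the shuttle receptor UBQLN4 fell (-0.40 ± 0.05). Of 14 interferon and class I loading genes, which handle the peptides the proteasome makes, 5 rose, 8 fell and 1 was not called. ERAP2 (1.24 ± 0.05) and TAP2 (1.18 ± 0.06) rose beside PSME2 and PSMB8, whereas IRF1 (-0.59 ± 0.06), B2M (-0.52 ± 0.03) and HLA-B (-1.42 ± 0.03) fell.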

How the data were processed

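Poly-A RNA of 4 libraries was sequenced from a stranded mRNA kit, per the labels' protocols. The deposited files give an expected count per gene, per the file headers, which is an estimate and may be fractional. GRCh38, RSEM 1.3.1 and STAR 2.7.2b are named, in no order, per the submitters' processing notes. The annotation release used for counting is not given in the sources used here. Expected counts divide reads among similar genes, and 12 of the 48 members had values that were not whole.

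Counts were rounded and tested with edgeR 4.0.16 (R 4.3.3, limma 3.58.1): filterByExpr, TMM scaling, robust quasi-likelihood F test on group alone, two-sided, Benjamini-Hochberg over all 17207 genes tested. The script was tested on simulated data. A standard error is the log2 fold change divided by the square root of F. DESeq2 1.42.0 was an alternative. In a library 3 counts correspond to 0.0886 to 0.125 CPM, for counting error only. Positions, overlaps and lengths came from GENCODE release 29 (GRCh38), matched by identifier for 48 of 48 members. The length is that of the transcript with the best APPRIS principal tag, the longest of the basic set where tied. Values by library are given for subunits of the immunoproteasome and their counterparts, activators, chaperones and the highest and lowest fold change of each role group, and others were added after their values were seen. Within both groups the 2 libraries differed beyond counting error (chi-square per degree of freedom 3.56 untreated, 1.95 abemaciclib). The members and lists were chosen with earlier results of these data known. Some genes of the lists are counted but not reported here by name.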

Additional observations from a re-analysis of the deposited data

How the results depend on the processing

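The counts of members called higher and lower were 29 and 11, and stayed within 25 to 31 and 9 to 11 under the 10 alternatives run, the lowest (25 and 9) with DESeq2. At least 1.5-fold, 10 or 11 members were higher and 0 lower in each. Leaving out 1 library gave 27 to 29 higher and 10 or 11 lower. The share of all genes called was not as steady. DESeq2 gave a p-value to 29163 genes and called 10733, which was 52.0% of those with an adjusted p. With every gene of at least 1 count kept, 47.3% were called, beside 77.3% in the main fit. The fit with the replicate number as a replicate block also called 29 higher and 11 lower, and 76.2% of all genes tested. The numbers are shared by title only, and deviations of same-numbered libraries had a correlation of -2.2e-04. Scaling by library total, which moved all genes by a median of 0.05, gave median log2 fold changes of 0.23 (all members), 0.24 (alpha), 0.26 (structural beta), 0.08 (catalytic beta), 0.23 (ATPases), 1.02 (other base), 0.18 (lid), 0.21 (cap chaperones) and 0.30 (activators and inhibitor), and summed CPM ratios of 1.27, 1.22, 1.14, 1.11, 1.19, 1.76, 1.11, 1.18 and 1.73 in that order, with 1.21 for the PSMG chaperones. DESeq2 size factors gave ratios of 1.11 for structural and 1.08 for catalytic beta subunits.

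Without 1 library in turn, median log2 fold changes ranged from 0.16 to 0.20 (all members), 0.19 to 0.22 (structural beta), 0.02 to 0.05 (catalytic beta), 0.96 to 0.99 (other base), 0.12 to 0.16 (lid), 0.16 to 0.19 (cap chaperones) and 0.22 to 0.26 (activators and inhibitor), and summed CPM ratios from 1.10 to 1.11 (structural beta), 1.07 to 1.08 (catalytic beta), 1.14 to 1.15 (cap chaperones) and 1.14 to 1.21 (PSMG chaperones). The medians ranged most widely for the immunoproteasome (0.15 to 0.33) and the PSMG chaperones (0.18 to 0.29). The summed CPM ratio of the immunoproteasome ranged from 1.11 to 1.21.

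With union exon lengths the untreated log2 ratios were -3.14 (PSMB8 to PSMB5), -3.57 (PSMB9 to PSMB6), -1.99 (PSMB10 to PSMB7) and -1.48 (PSME2 to PSME1). Signs turned only in members that were not called, and only when 1 library was left out: PSMA2 (-4.65e-04 without abemaciclib replicate 2, up to 0.05 without another), PSMB7 (-0.01 without untreated replicate 1, up to 0.03 without another) and PSMG2 (-0.01 without untreated replicate 2, -0.08 without abemaciclib replicate 2, up to 0.10 without another). Of the members' fold changes under alternatives, 438 kept direction and call, and in 15 a call was lost and in 3 gained. The cause was not tested. With 2 libraries a group and 2 residual degrees of freedom, differences near the spread between replicates (median gap 3.18% untreated, 2.20% treated) were at the limit of detection. The robust quasi-likelihood fit also draws on the spread of all genes tested. A p-value therefore does not rest on the replicates of its own gene alone.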
